A study of Mus musculus with 12 samples.

Results

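The 10 genes described here encode adhesion molecules of the immunoglobulin superfamily: Ncam1 and Ncam2, the L1 family genes L1cam, Chl1 and Nrcam, the nectin-like genes Cadm1, Cadm3 and Cadm4, and the genes of the surface antigens CD146 (Mcam) and CD166 (Alcam). They were chosen by gene name and each matched 1 of the 55487 genes in the deposited table. RNA had been sequenced from 4 populations of cancer-associated fibroblasts sorted from mammary tumours of 3 untreated FVB MMTV-PyMT mice at 10 weeks of age, 1 library per population and mouse (mice 27, 30 and 31), 12 libraries in all. In these mice a viral promoter that is active in mammary epithelium drives the polyoma middle T oncogene, and every group carried it. Live cells that lacked CD45, CD31 and EPCAM and carried PDGFRb were divided further. The vcaf gate held Ly6C-negative, CD146-positive, PDGFRa-negative cells, and the icaf gate held Ly6C-positive cells. The m2cafpos and m2cafneg gates held Ly6C-negative, CD146-negative, PDGFRa-positive cells with or without surface NCAM. NCAM is the product of Ncam1 and CD146 that of Mcam, so the sort itself set the differences of these 2 genes between gates chosen on them.

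Proteins of this superfamily carry extracellular immunoglobulin domains and bind the same molecule or a relative on a neighbouring cell. NCAM also signals through FGF receptors and GDNF family receptors and can carry polysialic acid, which weakens its adhesion. The L1 family and several relatives are best known from growing axons, where their cytoplasmic tails bind ankyrins, while CADM proteins join epithelial, Schwann and neuronal cells and MCAM is a surface marker of pericytes and endothelium.

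On the mm10 build (GRCm38, GENCODE M21) the genes lay on 7 chromosomes. Ncam1 (ENSMUSG00000039542) spans chr9:49502136-49798925 on the reverse strand, and Cadm1 (ENSMUSG00000032076, chr9:47530173-47857637) and Mcam (ENSMUSG00000032135, chr9:44134469-44142727) lie on the forward strand of the same chromosome. Ncam2 (ENSMUSG00000022762) is at chr16:81200697-81626828 on the forward strand and Alcam (ENSMUSG00000022636) at chr16:52248996-52454074 on the reverse strand. The L1 family genes are Nrcam (ENSMUSG00000020598, chr12:44328885-44601964, forward), L1cam (ENSMUSG00000031391, chrX:73853778-73896105, reverse) and Chl1 (ENSMUSG00000030077, chr6:103510586-103750211, forward). Cadm3 (ENSMUSG00000005338) is at chr1:173333258-173367695 on the reverse strand and Cadm4 (ENSMUSG00000054793) at chr7:24482023-24504539 on the forward strand.

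The 250 bases before the RefSeq start are given for 2 genes that were high in icaf, Nrcam and Cadm3, and for Cadm4, which was low in every gate and lowest in icaf, so that the starts of genes with different patterns can be compared (GRCm38.p6, each read 5′ to 3′ on the gene's own strand). Capitals mark the motifs found.

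Nrcam, chr12:44328635-44328884, forward strand: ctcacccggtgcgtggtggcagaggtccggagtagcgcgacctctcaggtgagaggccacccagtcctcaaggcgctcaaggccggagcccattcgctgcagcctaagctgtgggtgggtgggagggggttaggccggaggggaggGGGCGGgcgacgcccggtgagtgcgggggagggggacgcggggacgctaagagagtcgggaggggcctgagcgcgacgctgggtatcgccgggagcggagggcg

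Cadm3, chr1:173367696-173367945, reverse strand: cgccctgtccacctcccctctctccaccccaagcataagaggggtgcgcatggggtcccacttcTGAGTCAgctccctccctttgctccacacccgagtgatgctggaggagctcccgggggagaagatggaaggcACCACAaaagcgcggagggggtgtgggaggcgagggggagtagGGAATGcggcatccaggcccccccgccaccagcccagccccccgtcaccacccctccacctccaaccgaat

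Cadm4, chr7:24481773-24482022, forward strand: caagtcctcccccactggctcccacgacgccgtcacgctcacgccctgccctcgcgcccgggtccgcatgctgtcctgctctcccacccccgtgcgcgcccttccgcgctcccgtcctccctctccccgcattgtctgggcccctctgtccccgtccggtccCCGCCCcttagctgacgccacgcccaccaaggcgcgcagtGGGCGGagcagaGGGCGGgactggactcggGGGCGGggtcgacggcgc

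RefSeq windows were at hand for 8 of the 10 genes. A search of both strands used 7 short motifs, a set chosen with the expression values known. The GC box, spelled GGGCGG, was found 4 times in the Cadm4 window, with first letters 88, 48, 36 and 18 bases before the start, and once in the Nrcam window, 104 bases before the start. The Cadm3 window lacked it. That window held the AP-1 motif TGANTCA at 186 bases before the start. On its opposite strand it held the RUNX motif TGTGGT at 114 bases, and it held the TEAD motif GGAATG at 71 bases. No motif was shared by the Nrcam and Cadm3 windows. Among the windows not printed, those of Mcam, Alcam, Ncam2 and L1cam also held the GC box, and that of Chl1 did not. Of all 32817 windows of the same length, 32.7% held the GC box, 6.8% the AP-1 motif, 14.0% the RUNX motif and 12.6% the TEAD motif. The TATA box, spelled TATAAA (in 12.4% of windows), the CCAAT box (33.8%) and the RBPJ motif, spelled TGGGAA (21.6%), were absent from all 3 printed windows. Their GC content was 72.4% for Nrcam, 66.8% for Cadm3 and 75.2% for Cadm4, against a median of 52.4% over all windows.

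The libraries held 43898839 to 55363203 reads assigned to genes, and levels are given as CPM, the reads of a gene per 1000000 such reads, in which a single read weighed 0.0181 to 0.0228 CPM. Rgs5, a pericyte gene, had 31133 to 51485 CPM in vcaf and at most 357 CPM in the other gates. Pdgfra had 4.44 to 8.49 CPM in vcaf and 358 to 586 CPM in the other gates, and Ly6c1 was highest in icaf, with 1004 to 1266 CPM. Although EPCAM-positive cells had been gated out, RNA of epithelial genes was present in every library and unequal between gates. The summed level of 20 epithelial genes was 9899 to 19359 CPM in vcaf, 1313 to 3471 CPM in icaf, 765 to 3392 CPM in m2cafpos and 6652 to 14246 CPM in m2cafneg. All 20 were higher in vcaf than in icaf and than in m2cafpos, and 19 were lower in icaf, and 19 in m2cafpos, than in m2cafneg. Sums of 16 macrophage genes were likewise higher in vcaf and m2cafneg, with 608 to 1408 CPM in vcaf, 104 to 232 CPM in icaf, 165 to 245 CPM in m2cafpos and 657 to 1040 CPM in m2cafneg. In such bulk samples, fewer cells of a type and less RNA per cell cannot be told apart.

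**Figure D1:**
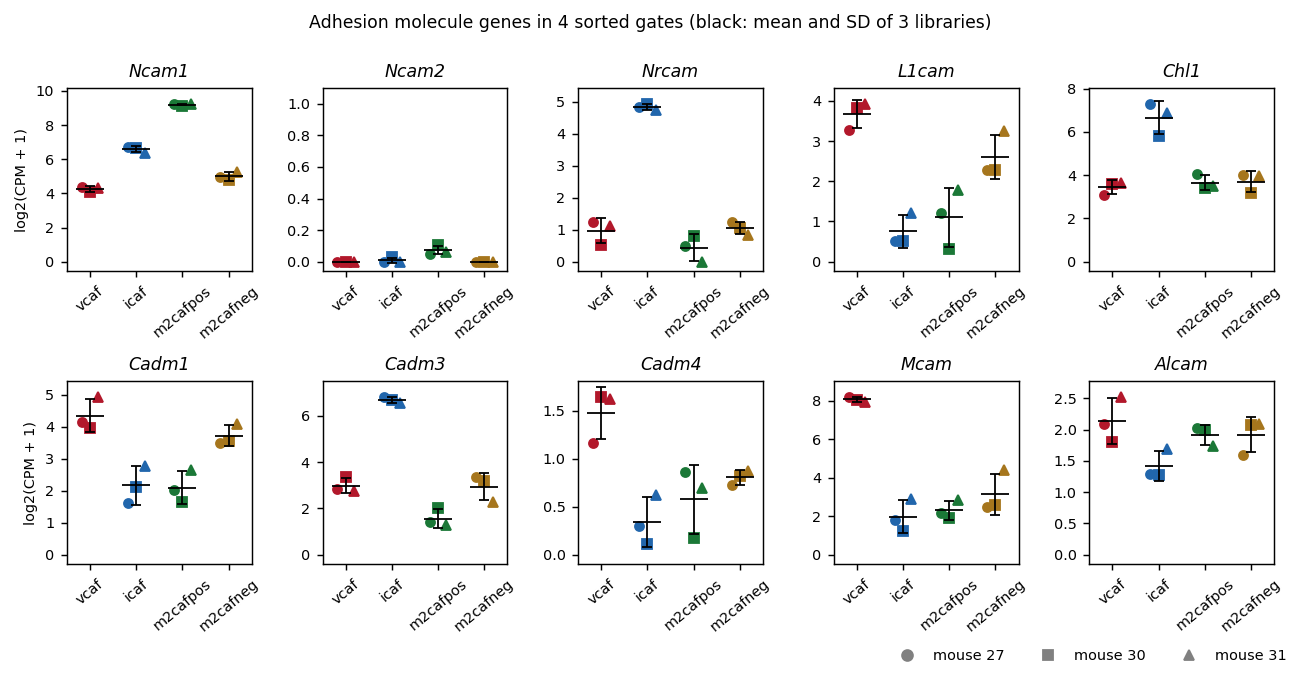
Level of each adhesion molecule gene as log2(CPM + 1) on the vertical axis in the 4 gates, with 1 point per library (circle, square and triangle for mice 27, 30 and 31) and the mean and SD of 3 libraries in black. Nrcam, Chl1 and Cadm3 were high in icaf, Mcam in vcaf and Ncam1 in m2cafpos, while L1cam, Cadm1 and Cadm4 had their highest means in vcaf and their next highest in m2cafneg.

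Ncam1, the gene of the NCAM gate, had 19.7, 15.9 and 19.0 CPM in vcaf and 105, 102 and 82.6 CPM in icaf (mice 27, 30 and 31). It had 589, 564 and 604 CPM in m2cafpos and 30.0, 26.1 and 37.2 CPM in m2cafneg. The order of the gates was m2cafpos, icaf, m2cafneg and vcaf, and no gate overlapped its neighbour in that order. The mean was 18.8-fold higher in m2cafpos than in m2cafneg, a difference of 4.20 on the log2(CPM + 1) scale that the sort set and that was not tested. NCAM was no criterion for vcaf or for icaf, where the difference could be tested: Ncam1 was 5.30-fold lower in vcaf than in icaf (log2 difference -2.34 ± 0.14, SE, n = 3 each; limma adjusted p = 4.45e-08). The icaf gate, which was not sorted on NCAM, held more Ncam1 RNA than the gate sorted as NCAM-negative, with 96.5 ± 12.2 CPM in icaf against 31.1 ± 5.63 CPM in m2cafneg (SD, n = 3 each). An antisense gene, Gm11149, shares 417 exon bases with Ncam1 but reached at most 0.415 CPM.

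Ncam2, the close relative known mainly from olfactory neurons, was all but missing. It had 0 reads in the 3 vcaf libraries, 1 read over the 3 icaf libraries, 8 reads in the m2cafpos libraries (2, 4 and 2) and 0 reads in the 3 m2cafneg libraries. A count of 0 allows up to 3 reads, or 0.0555 to 0.0601 CPM in a vcaf library and 0.0570 to 0.0675 CPM in an m2cafneg library. All m2cafpos values (0.0361 to 0.0742 CPM) lay near that limit, and Ncam2 did not reach the level required for a test.

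Nrcam, an L1 family protein that clusters ion channels at nodes of axons, was close to absent outside icaf. It had 1.38, 0.444 and 1.18 CPM in vcaf and 27.5, 29.6 and 26.0 CPM in icaf. In m2cafpos it had 0.415, 0.760 and 0 CPM and in m2cafneg 1.35, 1.08 and 0.798 CPM. All 3 icaf libraries stood far above all 9 others, and the other gates overlapped except m2cafpos and m2cafneg. Nrcam was lower in vcaf than in icaf by 27.7-fold (log2 difference -3.87 ± 0.24, SE; limma adjusted p = 7.06e-08). In icaf it was higher than in m2cafpos by 4.40 ± 0.24 and higher than in m2cafneg by 3.80 ± 0.24 on the log2(CPM + 1) scale (adjusted p = 3.8e-07 and 2.05e-06, limma). Its difference between m2cafpos and m2cafneg, -0.61 ± 0.24, missed the threshold (limma adjusted p = 0.0808).

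Chl1, the close homologue of L1 that guides migrating neurons, was also highest in icaf, with a wider spread. Its levels were 7.49, 11.1 and 11.6 CPM in vcaf and 156, 54.3 and 116 CPM in icaf. They were 15.8, 9.60 and 10.2 CPM in m2cafpos and 15.1, 7.94 and 14.4 CPM in m2cafneg. Every icaf library was above every other library, although mouse 30 had the lowest icaf value by far, and the other 3 gates overlapped each other. The difference was -3.21 ± 0.35 for vcaf against icaf, 3.00 ± 0.35 for icaf against m2cafpos and 2.95 ± 0.35 for icaf against m2cafneg (log2 scale, SE; limma adjusted p = 1.01e-05, 5.82e-05 and 0.000101).

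Cadm3, a nectin-like molecule of neurons and Schwann cells, was also high in icaf. It had 6.25, 9.13 and 5.80 CPM in vcaf and 112, 102 and 92.7 CPM in icaf. It had 1.63, 3.04 and 1.41 CPM in m2cafpos and 9.25, 8.05 and 3.80 CPM in m2cafneg. The icaf libraries were again apart from all others, and those of m2cafpos were below all vcaf and m2cafneg libraries. Cadm3 was 14.5-fold lower in vcaf than in icaf (log2 difference -3.70 ± 0.28; limma adjusted p = 4.47e-07), and it was 50.4-fold higher in icaf than in m2cafpos (5.12 ± 0.28; adjusted p = 3.8e-07). It was also 14.5-fold higher in icaf than in m2cafneg (3.75 ± 0.28; limma adjusted p = 4.92e-06). Unlike Nrcam and Chl1 it was called between the other gates as well, higher in vcaf than in m2cafpos by 1.43 ± 0.28 and lower in m2cafpos than in m2cafneg by 3.47-fold (log2 difference -1.37 ± 0.28; limma adjusted p = 0.000835 and 0.00621).

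Cadm3 shares 361 exon bases with Ackr1, an atypical chemokine receptor gene on the same strand, and how reads that touch both genes were assigned is not given in the sources used here. Ackr1 had 10.4, 86.4 and 21.5 CPM in vcaf and 28.6, 28.6 and 29.0 CPM in icaf. It had 0.831, 2.78 and 4.17 CPM in m2cafpos and 4.16, 32.2 and 14.0 CPM in m2cafneg. Ackr1 was highest in vcaf of mouse 30, where Cadm3 had its highest vcaf value, 9.13 CPM. In m2cafneg, by contrast, Cadm3 was highest in mouse 27 (9.25 CPM), where Ackr1 was lowest of that gate (4.16 CPM). The icaf libraries, with the 3 highest values of Cadm3, were at 28.6 to 29.0 CPM of Ackr1. In m2cafpos, where Cadm3 was lowest, Ackr1 was also low (0.831 to 4.17 CPM), below all vcaf and icaf libraries and just overlapping m2cafneg. The part of shared reads in either gene was not tested.

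Epithelial and macrophage sums were low in icaf, where Nrcam, Chl1 and Cadm3 were high. Since all 3 genes are also known from nerves, markers of Schwann cells and nerves were set beside them. The 16 genes of that list summed to 523 to 631 CPM in vcaf, 298 to 445 CPM in icaf, 578 to 681 CPM in m2cafpos and 712 to 784 CPM in m2cafneg, so the sum was lowest in icaf. Of 14 tested, 11 were higher and 1 lower in vcaf than in icaf (all genes 46.1% and 13.9%). In icaf 2 were higher and 1 lower than in m2cafpos (all genes 15% and 8.86%). Against m2cafneg, icaf had 0 higher and 5 lower (all genes 8.77% and 20.9%). Of the 16 genes, 1 (Foxd3) was at 0 in the 3 icaf libraries, against 2 genes in m2cafpos and 0 in vcaf and in m2cafneg. The part of nerve RNA was not tested.

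L1cam, the founding member of the L1 family, had its highest values in vcaf, with 8.75, 13.2 and 14.2 CPM there and 0.437, 0.432 and 1.33 CPM in icaf. It had 1.32, 0.241 and 2.44 CPM in m2cafpos and 3.87, 3.87 and 8.51 CPM in m2cafneg. The vcaf libraries were above all others, closest to m2cafneg of mouse 31, and the m2cafneg libraries were above those of icaf and m2cafpos, which overlapped each other. L1cam was higher in vcaf than in icaf by 16.5-fold (log2 difference 2.93 ± 0.38; limma adjusted p = 3.93e-05) and higher in vcaf than in m2cafpos by 9.06-fold (2.58 ± 0.38; adjusted p = 9.65e-05). Against m2cafneg the vcaf difference was 1.07 ± 0.38 (limma adjusted p = 0.0408), and this call was lost in 11 of 21 alternative analyses, among them both other scalings (adjusted p = 0.151 each), edgeR (0.370), and leaving out vcaf of mouse 30 (0.101) or 31 (0.110), m2cafpos of mouse 27 (0.0537), or m2cafneg of mouse 27 (0.129) or 30 (0.125). It was also lower in icaf than in m2cafneg (-1.85 ± 0.38; adjusted p = 0.00312, limma). In m2cafpos it was lower than in m2cafneg (-1.50 ± 0.38; limma adjusted p = 0.0141), a call that was lost without m2cafpos of mouse 30 (adjusted p = 0.0517) or m2cafneg of mouse 31 (0.0571), and with edgeR (0.102).

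Cadm1, a nectin-like molecule of epithelium, mast cells and synapses, was likewise higher in vcaf and m2cafneg. Its levels were 16.6, 14.4 and 29.4 CPM in vcaf and 2.03, 3.28 and 5.88 CPM in icaf, and 3.09, 2.09 and 5.19 CPM in m2cafpos and 10.3, 10.6 and 16.1 CPM in m2cafneg. The gates formed 2 blocks, with every vcaf and m2cafneg library above every icaf and m2cafpos library, and within each block the gates overlapped. Differences between the blocks were 2.18 ± 0.35 for vcaf against icaf, 2.24 ± 0.35 for vcaf against m2cafpos, -1.55 ± 0.35 for icaf against m2cafneg and -1.61 ± 0.35 for m2cafpos against m2cafneg (log2 scale, SE; limma adjusted p = 0.000222, 0.000158, 0.00573 and 0.00766). Within a block, vcaf against m2cafneg gave 0.63 ± 0.35, which missed the threshold without a mouse term (limma adjusted p = 0.172) and passed it with mouse as a block (adjusted p = 0.0175).

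Cadm4, which joins Schwann cells to axons and is widespread in epithelia, was low everywhere. It had 1.24, 2.13 and 2.08 CPM in vcaf and 0.228, 0.0786 and 0.535 CPM in icaf, and 0.813, 0.130 and 0.615 CPM in m2cafpos and 0.653, 0.765 and 0.836 CPM in m2cafneg. The vcaf libraries were the 3 highest, and Cadm4 passed the filter of 1 CPM in 3 libraries only through them, so that a difference there was built into its being tested. The log2 difference was 1.14 ± 0.21 for vcaf against icaf, 0.90 ± 0.21 against m2cafpos and 0.67 ± 0.21 against m2cafneg (limma adjusted p = 0.000669, 0.00261 and 0.0272). Of these, the calls against icaf and m2cafpos were lost with the epithelial sum as a covariate (limma adjusted p = 0.406 and 0.786). The call against m2cafpos was also lost with edgeR (adjusted p = 0.141) and DESeq2 (0.143). That against m2cafneg was lost in 10 of 21 alternatives, among them both other scalings (0.129 and 0.128) and leaving out vcaf of mouse 30 (0.0801) or 31 (0.0761), or m2cafneg of mouse 27 (0.0766) or 30 (0.0589).

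L1cam and Cadm1 were mostly higher in libraries with a higher epithelial sum. Cadm4 followed it less closely, with 0.813 CPM in m2cafpos of mouse 27 at a sum of 2134 CPM but 0.653 CPM in m2cafneg of mouse 27 at 9188 CPM. Per 1000 CPM of that sum, Cadm1 was at 1.21 to 1.68 CPM in vcaf, 1.55 to 2.01 CPM in icaf, 1.45 to 2.74 CPM in m2cafpos and 1.12 to 1.60 CPM in m2cafneg. Its span over the libraries was thus 2.44-fold per epithelial sum, against 14.5-fold in CPM, and the gates no longer fell into blocks. L1cam per 1000 CPM was 0.734 to 1.11 CPM in vcaf, 0.265 to 0.382 CPM in icaf, 0.315 to 0.719 CPM in m2cafpos and 0.422 to 0.597 CPM in m2cafneg, so its vcaf libraries stayed the 3 highest, and its span was 4.20-fold against 59.0-fold in CPM. For Cadm4 the span per epithelial sum was 7.89-fold, against 27.0-fold in CPM. Chl1 and Cadm3 behaved otherwise, with wider spans per epithelial sum (199-fold and 319-fold) than in CPM (20.8-fold and 79.1-fold). So did Alcam, which was nearly even between the gates, with 18.6-fold per epithelial sum and 3.35-fold in CPM. These ratios are a description without a test. With the log2 epithelial sum as a covariate, the 4 calls of Cadm1 were lost (adjusted p = 0.30, 0.306, 0.802 and 0.808), L1cam kept its call in vcaf against icaf with a difference of 1.11 in place of 2.93 (adjusted p = 0.046), and Cadm4 lost that call (0.406). Cadm4 also lost its call in vcaf against m2cafpos (limma adjusted p = 0.786). L1cam lost its calls in vcaf against m2cafpos (adjusted p = 0.195) and icaf against m2cafneg (0.646), and its difference between m2cafpos and m2cafneg turned to 0.10 (0.905). That covariate differs between the gates, so the part of epithelial RNA and that of the gate cannot be told apart for these genes. Other marker sums differed as well. That of 18 endothelial genes was 1099 to 1391 CPM in vcaf and 246 to 468 CPM in icaf. It was 99.7 to 171 CPM in m2cafpos and 279 to 726 CPM in m2cafneg. The macrophage sum was also higher in vcaf and m2cafneg, and the Schwann and nerve sum was lowest in icaf and highest in m2cafneg. The part of such RNA in L1cam, Cadm1 and Cadm4 was not tested.

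**Figure D2:**
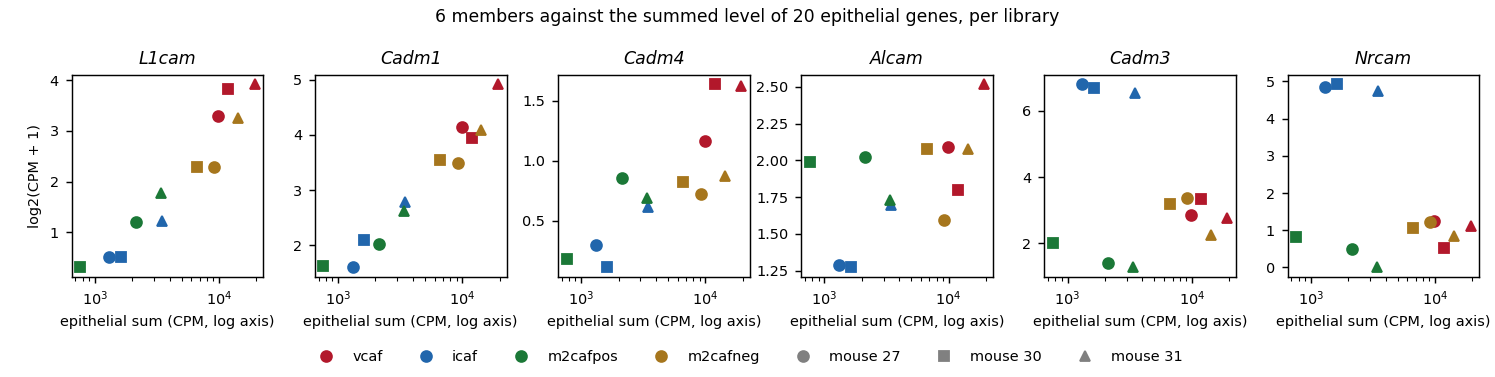
Level of 6 genes as log2(CPM + 1), vertical, against the summed CPM of 20 epithelial genes on a log axis, horizontal, with 1 point per library, colours for gates and shapes for mice. L1cam and Cadm1 were higher toward the right of the axis, which runs over sums of 765 to 19359 CPM, Cadm4 less regularly so, while Cadm3 and Nrcam set the 3 icaf libraries apart at the low end.

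Mcam, the gene of the CD146 gate, had 295, 267 and 245 CPM in vcaf and 2.51, 1.38 and 6.43 CPM in icaf, and 3.50, 2.74 and 6.22 CPM in m2cafpos and 4.66, 4.97 and 19.8 CPM in m2cafneg. The vcaf mean was 27.4-fold that of m2cafneg and 78.1-fold that of icaf, as the sort had set, and neither was tested. The icaf gate had not been sorted on CD146, and it overlapped the CD146-negative gates. Both m2caf gates were CD146-negative, and m2cafpos against m2cafneg gave -0.84 ± 0.49, which missed the threshold (limma adjusted p = 0.220). The highest of these values, in m2cafneg of mouse 31, stood beside the highest Rgs5 level outside vcaf (357 CPM, against 43.1 and 70.3 CPM in the other m2cafneg libraries). The endothelial sum in that library was 726 CPM (279 and 390 CPM in the other 2). The sum of 15 pericyte genes, Rgs5 and Mcam among them, set mouse 31 less apart. It was 1486, 816 and 1666 CPM in m2cafneg of mice 27, 30 and 31. The part of pericyte or endothelial RNA in the Mcam value was not tested. Gm10687, on the opposite strand with 17 shared exon bases, had 13.5 to 16.6 CPM in vcaf and at most 0.551 CPM elsewhere. With strand handling not given, it is not known to which of the 2 genes reads that touch the shared bases were assigned.

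Alcam, which binds CD6 on T cells and pairs with itself, was low and nearly even. It had 3.26, 2.48 and 4.74 CPM in vcaf and 1.44, 1.42 and 2.24 CPM in icaf, and 3.07, 2.97 and 2.32 CPM in m2cafpos and 2.02, 3.22 and 3.23 CPM in m2cafneg. The icaf libraries were below those of vcaf and m2cafpos, and vcaf, m2cafpos and m2cafneg overlapped. The 1 call, higher in vcaf than in icaf by 0.72 ± 0.22 (limma adjusted p = 0.0150), was lost in 8 of 21 alternatives, among them both other scalings (adjusted p = 0.135 and 0.125), edgeR (0.121) and leaving out vcaf of mouse 31 (0.0651), icaf of mouse 27 (0.0513) or icaf of mouse 30 (0.0540).

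**Figure D3:**
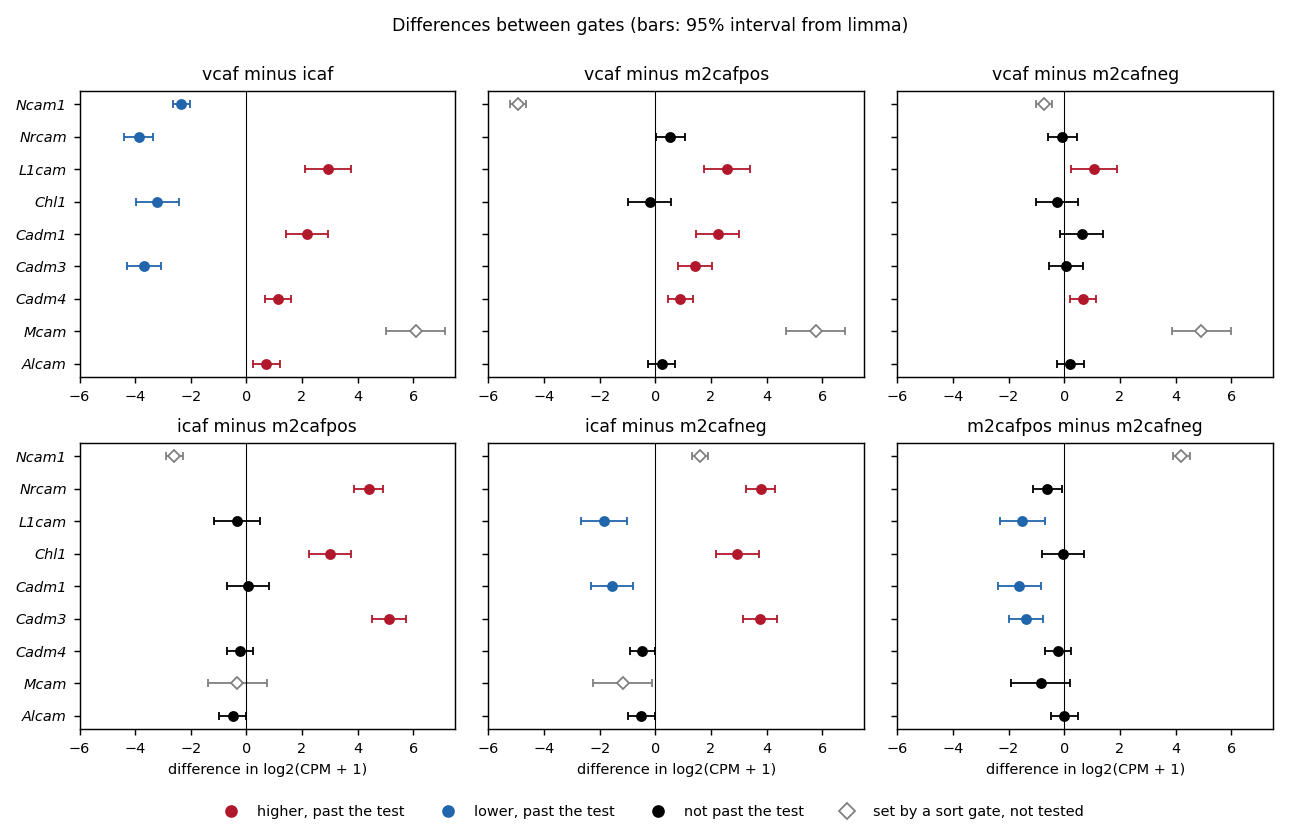
Difference between 2 gates in log2(CPM + 1), horizontal, for each of 9 genes in the 6 comparisons, with 95% intervals from limma. Red points were higher and blue points lower past the test, black points were not past it, and open diamonds were set by a sort gate. In vcaf minus icaf the differences ran from -3.87 for Nrcam to 2.93 for L1cam among the genes tested. In m2cafpos minus m2cafneg the 3 called genes were all lower, where 22.6% of all genes were called lower and 3.51% higher. These shares are for CPM without further scaling and became nearly even with median-of-ratios scaling.

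Counts of these calls have to be read against the whole table, in which many genes differed between the gates. Shares of all genes, here and in the other paragraphs, rest on CPM without further scaling, and their direction depended on that. In vcaf against m2cafpos, 81.7% of the genes called were higher, but 49.6% with median-of-ratios scaling. Of the members tested, 4 were higher and 4 lower in vcaf than in icaf (59.9% of 15456 genes tested were called, 46.1% higher and 13.9% lower). In vcaf against m2cafpos 4 of 7 were higher and 0 lower (67.9% of all genes called, 55.5% higher and 12.4% lower). With limma, edgeR and DESeq2, 0, 0 and 1 members were lower there at an unadjusted p under 0.05. In vcaf against m2cafneg 2 of 7 were higher and 0 lower (37.9% of all genes called, 26.6% higher and 11.3% lower), and edgeR and DESeq2 had 0 in either direction, also at an unadjusted p under 0.05. Cadm4 was among the higher members in each of these limma counts. It passed the filter only through vcaf, so its place in them was built into its being tested.

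The icaf gate had 3 of 7 members higher and 0 lower than m2cafpos (23.9% of all genes called, 15% higher and 8.86% lower). At an unadjusted p under 0.05 each of limma, edgeR and DESeq2 had 1 lower member. Against m2cafneg, icaf had 3 of 7 higher and 2 lower (29.7% of all genes called, 8.77% higher and 20.9% lower). In m2cafpos against m2cafneg 3 of 8 were lower and 0 higher (26.1% of all genes called, 3.51% higher and 22.6% lower), and limma, edgeR and DESeq2 had 0 higher also at an unadjusted p under 0.05. With median-of-ratios scaling, 49.3% rather than 13.4% of all genes called there were higher, while the members stayed at 3 lower and 0 higher. Since each gate enters 3 comparisons, these counts share libraries.

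Levels of different genes were compared per kilobase of merged exons. In vcaf, Mcam led with 80.2 ± 7.49 CPM per kb, followed by Ncam1 (2.10 ± 0.232), Cadm1 (1.93 ± 0.776) and L1cam (1.64 ± 0.396 CPM per kb), which did not differ beyond their spread. In icaf, Cadm3 was first with 14.1 ± 1.31 CPM per kb, followed by Ncam1 (11.1 ± 1.41) and Chl1 (8.86 ± 4.16), which overlapped each other, and Nrcam (2.07 ± 0.136 CPM per kb; SD, n = 3 throughout). In m2cafpos, Ncam1 had 67.6 ± 2.34 CPM per kb and the next gene, Mcam, 1.24 ± 0.545 CPM per kb. In m2cafneg, Ncam1 (3.59 ± 0.650) and Mcam (2.93 ± 2.59 CPM per kb) were within their spread of each other. The Mcam mean rested on mouse 31, and its values overlapped those of Cadm1 (1.18 ± 0.309), as did those of Chl1 (1.01 ± 0.320 CPM per kb).

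Genes that bind, modify or cut NCAM and its relatives were followed as a list of 26, of which 24 could be tested. In vcaf against icaf 8 were higher and 12 lower, where 46.1% of all genes were called higher and 13.9% lower (median log2 difference -0.59, against 0.36 over all genes). Fgfr1, the FGF receptor that NCAM engages, had 72.7 CPM on average in vcaf and 387 CPM in icaf (log2 difference -2.40 ± 0.13; limma adjusted p = 2.09e-08). Focal adhesion kinase (Ptk2), which acts downstream of NCAM, averaged 238 CPM in vcaf and 32.8 CPM in icaf (2.81 ± 0.18; limma adjusted p = 9.52e-08). Nrp2, a semaphorin co-receptor, was higher in vcaf than in icaf by 3.12 ± 0.25 (limma adjusted p = 6e-07). Against m2cafpos 8 were higher and 8 lower in vcaf (all genes 55.5% and 12.4%; median 0.07, against 0.51 over all genes), and against m2cafneg 6 were higher and 8 lower (all genes 26.6% and 11.3%; median -0.28, against 0.26). Epb41l3, a cytoskeletal adaptor that binds CADM1, averaged 15.5 CPM in vcaf and 53.8 CPM in m2cafneg (-1.76 ± 0.20; limma adjusted p = 2.96e-05).

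The GDNF receptor genes differed in which gate they marked. Gfra1, a GDNF receptor that can pair with NCAM, had 4.24, 3.12 and 4.14 CPM in vcaf and 18.7, 35.5 and 26.9 CPM in icaf, and 70.2, 60.5 and 63.7 CPM in m2cafpos and 67.9, 30.4 and 49.8 CPM in m2cafneg. The vcaf libraries were the lowest, and Gfra1 was lower in vcaf than in m2cafpos by 3.77 on the log2 scale (-3.77 ± 0.27; limma adjusted p = 2.27e-07). Ret, the signalling receptor of the same ligands, had 0.380, 0.407 and 0.706 CPM in vcaf and 27.9, 17.6 and 17.5 CPM in icaf, and 0.253, 0.667 and 0.501 CPM in m2cafpos and 5.31, 1.98 and 1.75 CPM in m2cafneg. Its icaf libraries were the 3 highest. Ret was higher in icaf than in m2cafpos by 3.88 ± 0.30 and than in m2cafneg by 2.53 ± 0.30 (limma adjusted p = 2.84e-06 and 9.23e-05). Gap43, a growth cone protein, had 35.1, 12.5 and 12.4 CPM in icaf and at most 0.720 CPM in any library of another gate (icaf against m2cafpos 3.59 ± 0.32; limma adjusted p = 8.8e-06). As it passed the filter only through icaf, a difference there was built into its being tested. In all, icaf had 8 of the 24 higher and 5 lower than m2cafpos (all genes 15% and 8.86%), and 7 higher and 7 lower than m2cafneg (all genes 8.77% and 20.9%; median 0.13 and -0.08, against 0.11 and -0.12 over all genes).

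Between m2cafpos and m2cafneg, 1 of the 24 was higher and 4 were lower (all genes 3.51% and 22.6%; median -0.10, against -0.23 over all genes). The lower ones were Ank3, an ankyrin that anchors L1 family tails (-1.66 ± 0.27; limma adjusted p = 0.00236), Ret (-1.35 ± 0.30; 0.00816), the galectin gene Lgals3 (-1.21 ± 0.32; 0.0175) and the neurturin receptor gene Gfra2 (-1.31 ± 0.37; 0.0223). Ank3 and Ret lost the call with the epithelial covariate, Lgals3 in 7 and Gfra2, whose groups overlapped, in 8 of 21 alternatives. The higher one was Lgals1, another galectin, named after its value was seen (0.76 ± 0.22; limma adjusted p = 0.0274). Lama4, a laminin chain that MCAM binds, was higher in icaf than in m2cafneg by 0.85 ± 0.14 (limma adjusted p = 0.000788), a call lost with the covariate (0.0828). St8sia2 and St8sia4, which add polysialic acid to NCAM, were looked at after their values were seen. St8sia2 had 0.681, 0 and 0.314 CPM in vcaf and 2.15, 0.924 and 3.37 CPM in icaf, and 15.8, 5.01 and 14.8 CPM in m2cafpos and 16.8, 4.32 and 11.1 CPM in m2cafneg. Both m2caf gates were above vcaf and icaf and overlapped each other (0.16 ± 0.48; limma adjusted p = 0.838), so a difference between the NCAM-sorted gates was not shown. St8sia4 had 2.04, 3.16 and 3.84 CPM in vcaf, at most 0.515 CPM in icaf and 0.387 CPM in m2cafpos, and 0.348, 0.270 and 2.87 CPM in m2cafneg, whose mouse 31 library overlapped vcaf. It passed the filter only through vcaf.

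**Figure D4:**
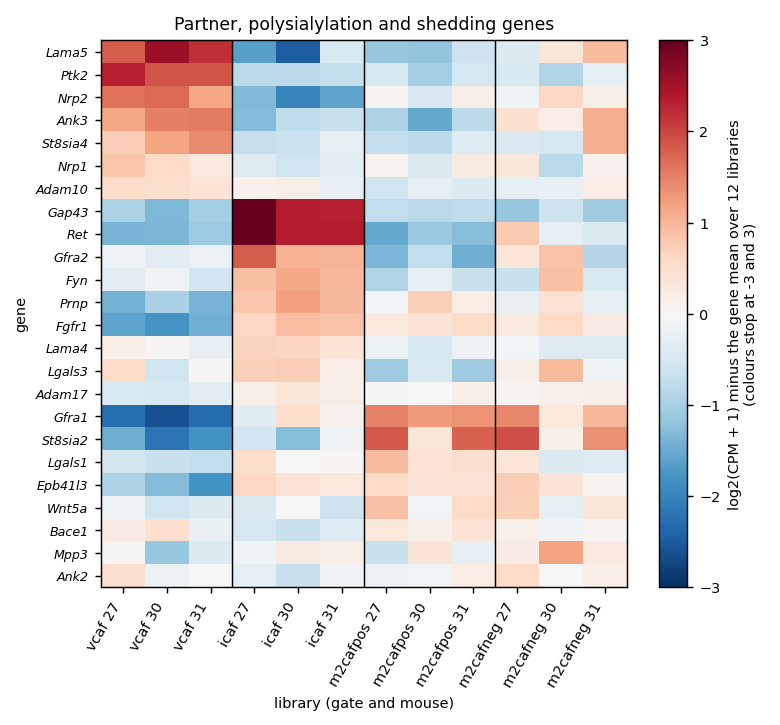
Level of 24 partner, polysialylation and shedding genes (vertical) in the 12 libraries (horizontal, by gate and mouse), coloured by log2(CPM + 1) minus the gene's mean over all libraries, with colours that stop at -3 and 3. Gap43 and Ret were high in the 3 icaf libraries, Ptk2 and Nrp2 in vcaf, and Gfra1 and St8sia2 in both m2caf gates.

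Of 49 other immunoglobulin-type adhesion molecules, 39 could be tested. In vcaf against icaf 17 were higher and 15 lower (all genes 46.1% and 13.9%; median log2 difference 0.10, against 0.36 over all genes). The IgLON gene Opcml had 3.10, 3.07 and 1.86 CPM in vcaf and 183, 249 and 161 CPM in icaf, and 5.45, 20.6 and 6.58 CPM in m2cafpos and 10.4, 19.8 and 7.43 CPM in m2cafneg. All icaf libraries were far above the rest, as for Nrcam and Cadm3, and Opcml was higher in icaf than in m2cafpos by 4.26 ± 0.42 and than in m2cafneg by 3.95 ± 0.42 (limma adjusted p = 1.61e-05 and 4.46e-05). Ntm, another IgLON gene, marked vcaf instead, with 48.1, 42.2 and 25.7 CPM there and at most 2.61 CPM in any other library (vcaf against m2cafpos 4.21 ± 0.29; limma adjusted p = 1.64e-07). A further IgLON gene, Lsamp, parted the 2 m2caf gates: it had 0.506, 0.667 and 0.387 CPM in m2cafpos and 9.23, 8.62 and 4.48 CPM in m2cafneg (-2.42 ± 0.24; limma adjusted p = 0.000167), beside 7.75 to 9.89 CPM in icaf.

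Sdk1, Clmp and Cdon were low in vcaf. Sdk1, a sidekick protein of retinal synapses, averaged 0.796 CPM in vcaf and 36.0 CPM in icaf (-4.38 ± 0.21; limma adjusted p = 8.72e-09), and Clmp, a CXADR relative at epithelial junctions, 3.82 CPM in vcaf and 54.1 CPM in icaf (-3.52 ± 0.19; adjusted p = 2.38e-08). Cdon, a co-receptor of hedgehog ligands, averaged 1.83 CPM in vcaf and 30.7 CPM in icaf (-3.48 ± 0.23; limma adjusted p = 1.34e-07), and Jam2, a junctional molecule, 13.0 CPM in vcaf and 60.9 CPM in m2cafneg (-2.16 ± 0.18; 1.45e-06). Nectin2 had the opposite order, with 108 CPM on average in vcaf and 19.5 CPM in icaf (2.41 ± 0.15; limma adjusted p = 6.06e-08). Igsf3 had 145 to 188 CPM in vcaf and 140 to 171 CPM in icaf, and 543 to 795 CPM in m2cafpos and 516 to 610 CPM in m2cafneg, which overlapped. Igsf3 was lower in icaf than in m2cafpos by 2.03 on the log2 scale (-2.03 ± 0.15; limma adjusted p = 2.56e-06). Against m2cafpos, vcaf had 17 of the 39 higher and 12 lower (all genes 55.5% and 12.4%), and against m2cafneg 8 higher and 15 lower (all genes 26.6% and 11.3%; median 0.11 and 0.01, against 0.51 and 0.26 over all genes).

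For icaf, 8 of the 39 were higher and 6 lower than in m2cafpos (all genes 15% and 8.86%), and 6 higher and 15 lower than in m2cafneg (all genes 8.77% and 20.9%; median -0.02 and -0.24, against 0.11 and -0.12). In m2cafpos against m2cafneg 0 were higher and 15 lower with limma (all genes 3.51% and 22.6%; median -0.30, against -0.23), 4 were higher at an unadjusted p under 0.05, and edgeR called 2 higher and 4 lower and DESeq2 6 higher and 8 lower. Mpzl1 (-0.98 ± 0.18) and Bcam, a laminin receptor (-2.08 ± 0.41), were among the lower ones (limma adjusted p = 0.00405 and 0.00497), and both lost the call with the epithelial sum as a covariate. Igsf8 was lower (-0.60 ± 0.13; limma adjusted p = 0.00691), a call lost with that covariate, with both other scalings and with edgeR and DESeq2.

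**Figure D5:**
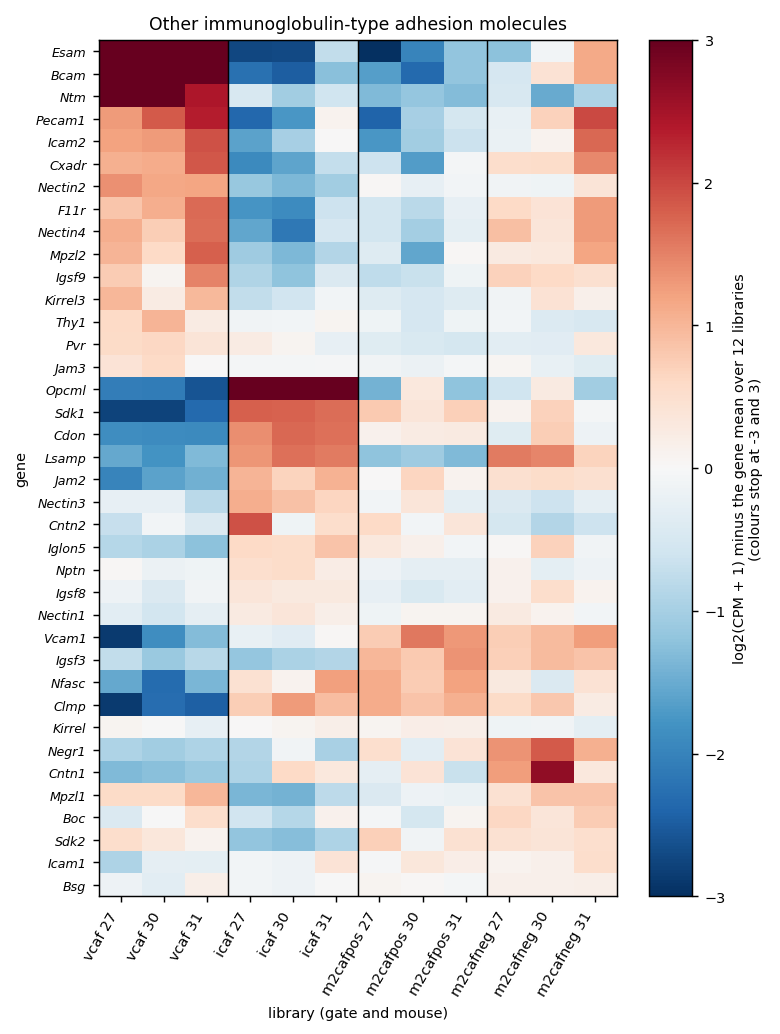
Level of 38 other immunoglobulin-type adhesion molecules (vertical) in the 12 libraries (horizontal, by gate and mouse), coloured by log2(CPM + 1) minus the gene's mean over all libraries, with colours that stop at -3 and 3. Ntm and Bcam were high in vcaf, Opcml and Sdk1 in icaf, Igsf3 in both m2caf gates and Lsamp in icaf and m2cafneg.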

How the data were processed

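RNA of 12 sorted libraries (4 gates, 3 mice, 1 library each) was analysed. The authors deposited CPM, reads per 1000000 reads assigned to genes. Per the submitters' processing notes, bcl2fastq, DRAGEN and mm10 were used (versions not named there). Kit, counting method and use of strand were not given in the sources used here, nor were the annotation release and any filter. The title 27_vacf was taken to mean vcaf. Of 55774 lines, 287 repeated an identifier (0 with other values), which left 55487 genes, 19288 of them without a read. GENCODE M21 held 99.4% of the identifiers.

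Every deposited CPM value was a whole multiple of 1 read (100% within 0.001 reads), which gave the counts per gene and totals of 43898839 to 55363203 reads. Floors of 3 reads cover counting error only. Values were compared as log2(CPM + 1) in 15456 genes that reached 1 CPM in 3 or more libraries, with limma 3.58.1 in R 4.3.3 (trend, two-sided, 8 residual degrees of freedom), adjusted by the Benjamini-Hochberg method over all of them at a threshold of 0.05. Folds of log2(CPM + 1) understate the change of low genes, whereas folds quoted as such are ratios of mean CPM. On the recovered counts, edgeR 4.0.16 called 7297, 6913, 3758, 3071, 4245 and 2088 genes in vcaf minus icaf, vcaf minus m2cafpos, vcaf minus m2cafneg, icaf minus m2cafpos, icaf minus m2cafneg and m2cafpos minus m2cafneg. DESeq2 1.42.0, other scalings, pseudocounts (0.1 and 5 CPM), no filter, a mouse block, an epithelial covariate and leaving out each library were further alternatives, 21 in all. The limma fit was tested on simulated data.

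Differences that a sort gate sets (Ncam1 in all comparisons but vcaf minus icaf, Mcam in all but m2cafpos minus m2cafneg) are described without a test and left out of the counts. The genes and lists were chosen with earlier results of these data known. From each list of related genes, the 4 with the smallest adjusted p per comparison were named, with exceptions stated. Some list genes are counted but not reported here by name. Titles begin with a mouse number and the tumours came from 3 mice, so numbers name animals. The deviations of same-mouse libraries from their gate means correlated with r of 0.0843 to 0.452 (median 0.293, 18 pairs, 17 over 0.1).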

Additional observations from a re-analysis of the deposited data

How the results depend on the processing

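Of 2142 values of single genes under an alternative, 2005 kept their direction and side of the threshold, 68 lost a call and 3 gained one. A further 20, of Ncam1 and Mcam where a gate was chosen on them, moved by more than the gene's residual SD in the main limma fit with the same sign. The sign changed in 46, of which 45 passed the test neither before nor after the change and 1 was a call: L1cam in m2cafpos minus m2cafneg, 0.10 with the epithelial covariate (adjusted p = 0.905). The calls of Nrcam, Chl1 and Cadm3 in icaf held in all 21 alternatives (highest adjusted p 0.00619).

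With the epithelial covariate, the members called were 5 rather than 8 in vcaf minus icaf, 1 rather than 4 in vcaf minus m2cafpos, 3 rather than 5 in icaf minus m2cafneg and 1 rather than 3 in m2cafpos minus m2cafneg. In vcaf minus m2cafneg, 2 became 0 with a pseudocount of 0.1 CPM, no filter, median-of-ratios or TMM scaling, edgeR and DESeq2, and 3 with the mouse block. Leaving out 1 library gave 7 to 8, 4 to 5, 0 to 2, 3 to 3, 5 to 5 and 2 to 3 members in vcaf minus icaf, vcaf minus m2cafpos, vcaf minus m2cafneg, icaf minus m2cafpos, icaf minus m2cafneg and m2cafpos minus m2cafneg. The 2 calls in vcaf minus m2cafneg were both lost without vcaf of mouse 30 or 31, or m2cafneg of mouse 27 or 30. Nrcam passed in vcaf minus m2cafpos without vcaf of mouse 30 (adjusted p = 0.0171) or m2cafpos of mouse 30 (0.0278). The mouse block changed no other call of a member than that of Cadm1 in vcaf minus m2cafneg.

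Genes called over the whole table fell to 3139 from 9265 with the covariate in vcaf minus icaf, to 6913 with edgeR and 4225 with the covariate from 10492 in vcaf minus m2cafpos, to 3758 with edgeR from 5861 in vcaf minus m2cafneg and to 586 with the covariate from 4594 in icaf minus m2cafneg. In m2cafpos minus m2cafneg 4041 became 2617 with no filter, 2603 and 2580 with the scalings, 2088 with edgeR, 237 with the covariate and 2253 to 4218 with a library left out.

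In the partner list, vcaf minus icaf had 20 called and 12 with the covariate. Its 14 in icaf minus m2cafneg became 7 with no filter, 9 with edgeR, 3 with the covariate and 8 to 16 with a library left out, and its 5 in m2cafpos minus m2cafneg became 2, 3, 2 and 2 to 6, with 3 by TMM. Among the other adhesion molecules, the covariate left 15 of 32, 15 of 29, 6 of 21 and 2 of 15 in vcaf minus icaf, vcaf minus m2cafpos, icaf minus m2cafneg and m2cafpos minus m2cafneg. The last of these was also 5 with no filter, 6 with edgeR and 6 to 16 with a library left out.

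Median-of-ratios scaling moved the median of all genes by -0.37, -0.48, -0.24, -0.11, 0.12 and 0.24 on the log2 scale in the 6 comparisons, taken in that order, and the share of calls that were higher was then 50.2% rather than 76.8%, 49.6% rather than 81.7%, 38.7% rather than 70.1%, 45.8% rather than 62.9%, 45.0% rather than 29.5% and 49.3% rather than 13.4%. Depth limits Ncam2 and, at 43 reads in icaf, Cadm4. With 3 mice, small differences may be missed.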

Other observations

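The genes whose levels followed each member most closely over the 12 libraries, which share gates and epithelial RNA, differed between members (Pearson r of log2(CPM + 1), a description). Only genes past the filter were ranked. Gene models known only by a number or clone name, such as those beginning with Gm, and ribosomal protein pseudogenes were left out. Ncam1 was nearest to Nrg1, a neuregulin (r = 0.964), Tnfrsf23 and Col12a1. Nrg1 averaged 1.17 CPM in vcaf, 5.45 CPM in icaf, 29.0 CPM in m2cafpos and 2.77 CPM in m2cafneg, the same order of gates as Ncam1. Nrcam was nearest to Adgrg2 (r = 0.990), Smpd3 and Dtx2, Chl1 to Arpc1b (0.984), Tmem132b and Fam205c, and Cadm3 to Arhgap20 (0.983), Dtx2 and Efhd1. Dtx2 stood on the lists of both Nrcam and Cadm3, which had r = 0.969 with each other.

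L1cam was nearest to Smagp (r = 0.992), Llgl2, a polarity gene, and Ptger2, and Cadm1 to Cgn, the tight junction protein cingulin (0.993), Cnksr1 and Acss1. L1cam and Cadm1 had r = 0.961 with each other. Cadm4 was nearest to Higd2a (0.959), Sema4g and Srek1ip1, and Alcam to Mif (0.923), Polr2g and Shroom4. Mcam was nearest to Klhl23 (0.991), Dab2ip and Gja4, a connexin of vessel walls. Cadm2, the remaining gene of the CADM family, had at most 1.14 CPM in any library and was not tested.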
